A study of Mus musculus with 12 samples.

Results

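The genes examined were Arg1, Arg2, Nos2, Odc1, Slc7a2, Ass1 and Asl, 7 of the 21883 protein-coding genes on which FRA-1 peaks were counted. They were listed for their place in arginine metabolism, by a rule that uses no measured value. A FRA-1 peak was counted for a gene when it overlapped the gene body or the 20 kb on either side of it (RefSeq positions, GRCm38). This also took in every peak that the deposited tables assign to these genes. They assign peaks to Arg1, Nos2, Asl and Slc7a2, and none to Arg2, Odc1 or Ass1. FRA-1, encoded by Fosl1, is a subunit of the AP-1 transcription factor, and ChIP-seq lists the genomic stretches where the precipitated DNA is enriched. Peritoneal macrophages were taken from 8-week-old mice and kept for 1 h with LPS, with apoptotic cells at a ratio of 1:5, or with neither (unstimulated). There were 3 replicates per condition and no altered Fosl1 allele named in any of them.

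The sample records describe cells elicited with 2.5 ml of 4% thioglycollate medium, harvested 72 h later from mice on a 129/C57Bl6 background, and an LPS dose of 1 µg/ml. The design text describes C57Bl/6 mice, lavage with no elicitation named, and 10 µg/mL LPS. The records name the same 3 mice in all 3 conditions, whereas the design text counts 9 animals, and the replicate columns carry no mouse name. If mice were shared, the replicates of different conditions were not independent. Peak tables hold no RNA, so the cell type could be checked only by FRA-1 regions at marker genes. Peaks of at least 2 of 9 replicates met in a region at 4 of 6 macrophage genes (Adgre1, Csf1r, Itgam and Mertk, not Spi1 and Cd68).

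Macrophages use arginine in competing ways. Arginase, made as the cytosolic Arg1 and the mitochondrial Arg2, splits it into ornithine and urea, and Odc1, ornithine decarboxylase, turns ornithine into putrescine at the entry to polyamine synthesis. Inducible nitric oxide synthase, Nos2, instead makes nitric oxide and citrulline, a hallmark of LPS-activated mouse macrophages. Slc7a2 carries cationic amino acids such as arginine into the cell, and Ass1 and Asl, argininosuccinate synthase and lyase, rebuild arginine from citrulline.

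At these 7 genes, 81 FRA-1 peaks were listed over the 9 replicates, in 62 separate regions. Most regions, 56 of them (90.3%), had a peak in a single replicate. Such regions were also the rule over the genome, where 10.3% of regions had a peak in at least 2 of 9 replicates. A region of that shared kind was present at 58.4% of protein-coding genes. FRA-1 regions listed in several replicates were found at Ass1, Odc1 and Asl, and none at Arg1, Arg2, Nos2 or Slc7a2. The most widely shared lay inside Ass1, with a peak in 8 of 9 replicates, and upstream of Odc1, with a peak in 7 of 9. No region had a peak in all 9 replicates.

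Ass1 and Odc1 held these regions away from their starts. The bases just before both starts are shown to give the sequence context in which no peak was listed (RefSeq, GRCm38.p6, plus strand, up to the base before the RefSeq gene). They are chr12:17544623-17544807 for Odc1, and chr2:31470020-31470269 for Ass1.
Odc1: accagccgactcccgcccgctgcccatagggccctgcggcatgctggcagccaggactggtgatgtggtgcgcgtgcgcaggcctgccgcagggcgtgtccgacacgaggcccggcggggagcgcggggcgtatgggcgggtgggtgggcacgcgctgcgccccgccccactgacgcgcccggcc
Ass1: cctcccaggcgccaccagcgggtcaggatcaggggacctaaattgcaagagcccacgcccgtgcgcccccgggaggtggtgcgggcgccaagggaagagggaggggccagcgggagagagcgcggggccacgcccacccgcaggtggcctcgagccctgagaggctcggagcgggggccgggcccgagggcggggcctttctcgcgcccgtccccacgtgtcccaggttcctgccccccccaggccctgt
The 185 bases of Odc1 had a GC content of 77.8% and the 250 bases of Ass1 one of 75.6%. Neither held the AP-1 letters TGANTCA or the related TGACGTCA, searched on both strands. Over 32851 RefSeq promoters of 250 bases, 6.75% held TGANTCA and 1.55% held TGACGTCA. Neither motif contains the other, and the absence of a match says only that these letters are not in these windows. The other 5 genes had no entry in the promoter table.

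The replicates differed over the whole genome. They had 20981 to 79474 peaks each, and they fell into a narrow class, with a smallest peak width of 104 to 116 bp (unstimulated replicate 3, LPS replicates 1 and 3, apoptotic cell replicate 3), and a wide class, of 158 to 172 bp (the other 5). Median widths in the narrow class were 140, 121, 113 and 172 bp in that order, and 190 to 223 bp in the wide class. By this measure apoptotic cell replicate 3 lay between the others of its class and the wide class. The narrow class held 52 of the 81 peaks at the 7 genes. It also held most peaks of the whole genome. Its replicates had 28314, 46007, 63010 and 79474 peaks, and those of the wide class 20981 to 40821 each. How the peak score was computed is not given in the sources used here, so each score is read within its replicate, as a percentile of that replicate's scores where needed. Scores at the 7 genes ran from 64.06 to 304.84 with a median of 136.35, and their percentiles from 2.32 to 98.1 with a median of 52.4.

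**Figure D1:**
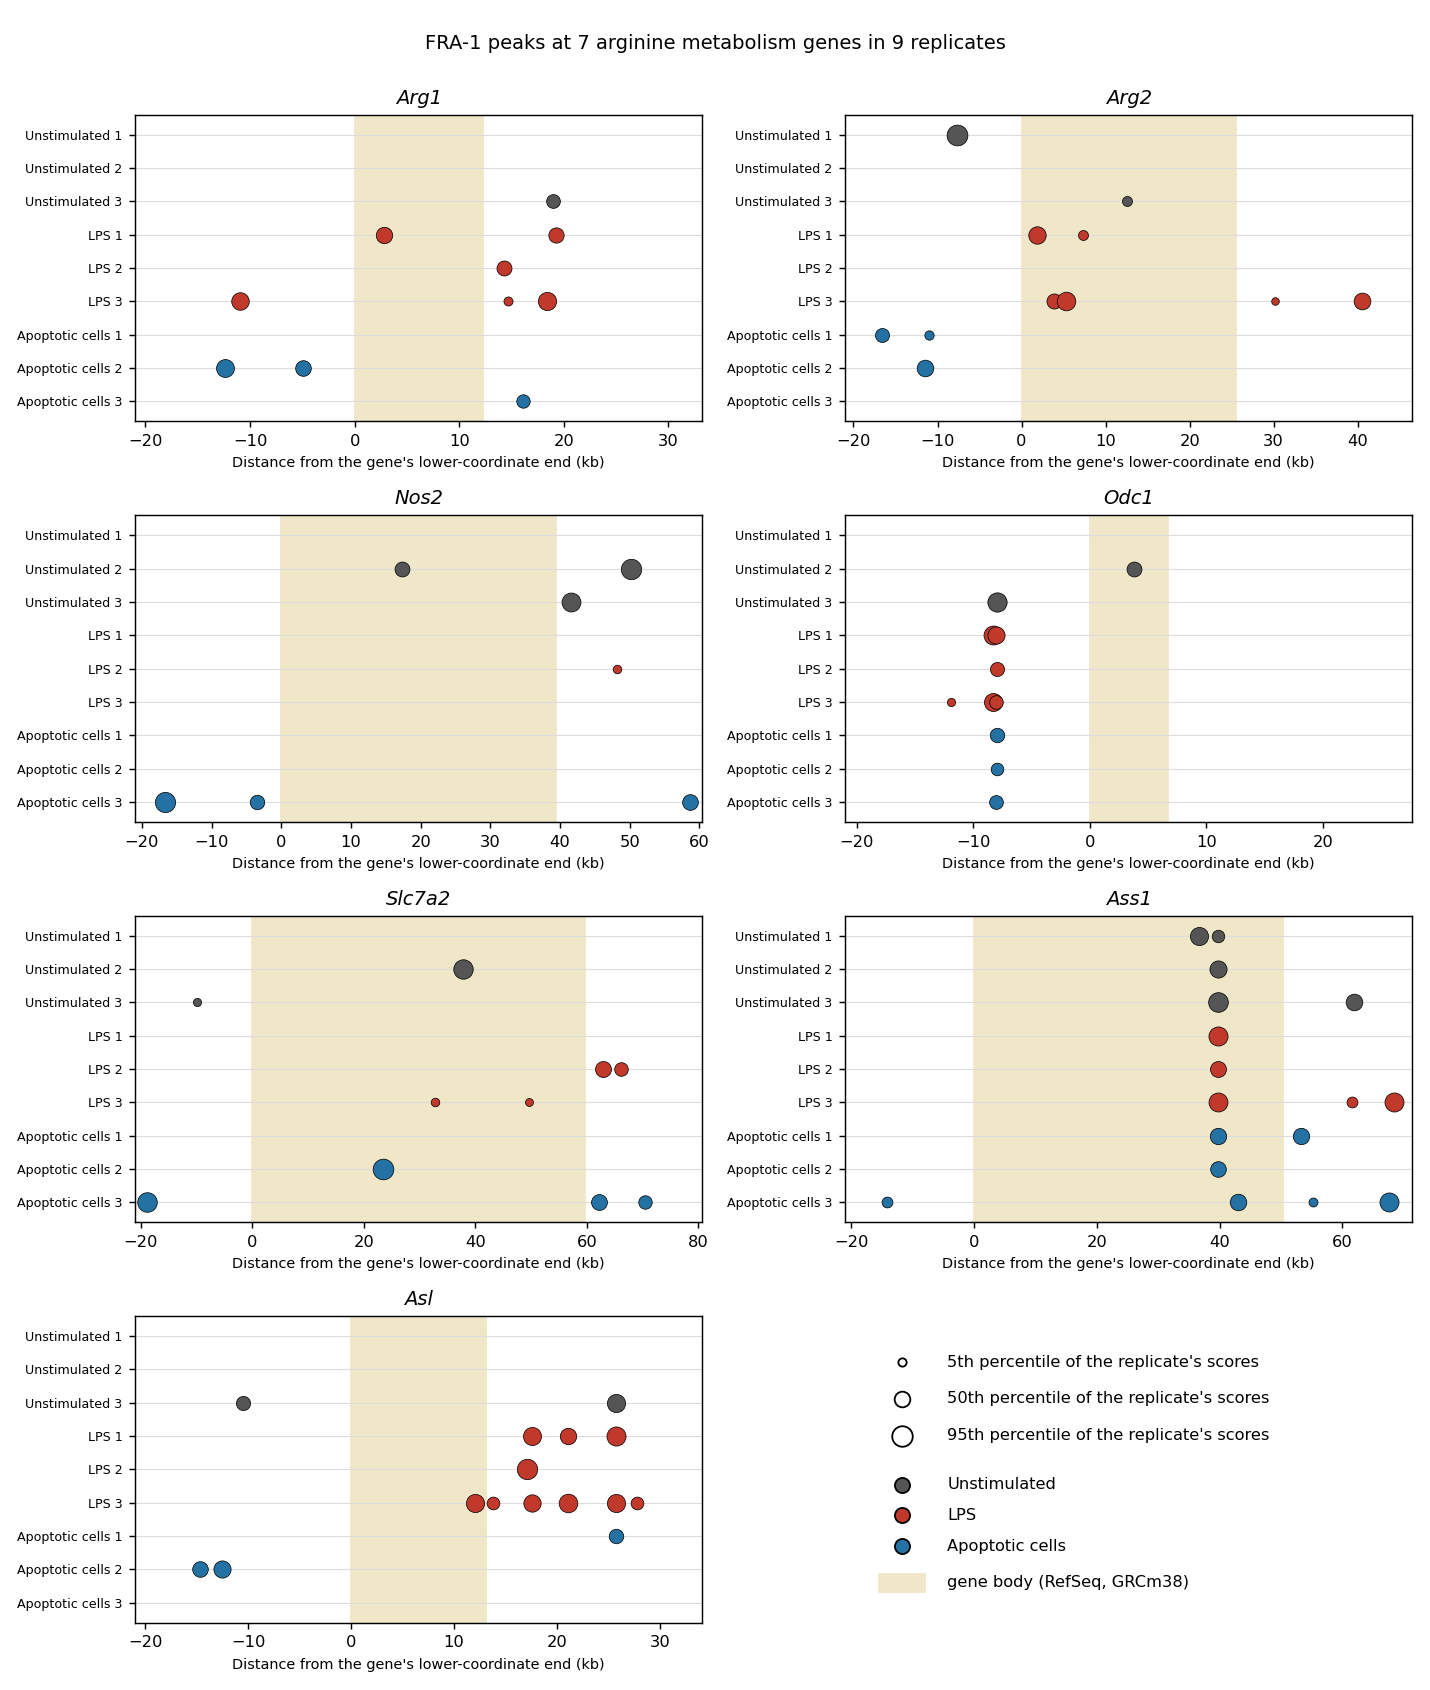
FRA-1 peaks at the 7 genes, 1 panel per gene and 1 line per replicate. The horizontal axis is the distance in kb from the gene's lower-coordinate end, shading marks the gene body, colors mark the condition, and the size of a point grows with the percentile of the score in its replicate. Peaks stand in a column over replicates at Odc1 (7 of 9) and Ass1 (8 of 9), whereas those of Arg1, Arg2, Nos2 and Slc7a2 are scattered.

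Ass1, the enzyme that joins citrulline and aspartate, lies on chromosome 2 from 31470270 to 31520670 and was the only one of the 7 genes with a peak in every replicate. Its 17 peaks were the highest number among the 7 genes. The shared region lay inside the gene, at 31509929 to 31510102, 39659 to 39832 bp from the start. Unstimulated replicates had scores of 99.78, 150.95 and 234.24 there, LPS replicates 209.12, 126.89 and 284.18, and the first and second apoptotic cell replicates 129.52 and 133.78. Apoptotic cell replicate 3, which had more peaks than any other replicate, had none listed in this region and had one 3074 bp further into the gene, at 31513177 to 31513311 with a score of 111.27. Unstimulated and LPS scores overlapped, with means of 161.66 ± 67.9 and 206.73 ± 78.7 (SD, n = 3 each; exact permutation test, two-sided, p = 0.5). As percentiles the means were 58.7 ± 29.5 without stimulation and 70.8 ± 15.9 with LPS (SD, n = 3 each; exact permutation test, two-sided, p = 0.7). The narrow-class replicates had 234.24, 209.12 and 284.18 in this region, above every wide-class score there (99.78 to 150.95). The part of peak width in these scores was not tested. Scores take repeated values: 150.95, 126.89, 129.52 and 133.78 are each the commonest score of their replicate, carried by 13.3 to 14.4% of its peaks.

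The remaining 9 regions at Ass1 each had a peak in a single replicate. Inside the gene, unstimulated replicate 1 had a peak at 31506791 to 31507043 with a score of 162.3. Beyond the 3′ end, LPS replicate 3 had peaks of 119.35 and 284.82, unstimulated replicate 3 one of 150.97, apoptotic cell replicate 1 one of 129.52 and apoptotic cell replicate 3 peaks of 67.66 and 146.98. The peaks farthest beyond this end, from 31531758 on, overlapped the neighboring gene Gm32952. On the upstream side the only peak was one of apoptotic cell replicate 3, with a score of 75.14, which overlapped Hmcn2. Counted over the window, unstimulated replicates had 2, 1 and 2 peaks, LPS replicates 1, 1 and 3, and apoptotic cell replicates 2, 1 and 4. These counts overlapped among the 3 conditions, with means of 1.67 ± 0.577, 1.67 ± 1.15 and 2.33 ± 1.53 (SD, n = 3 each).

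Asl, which cleaves argininosuccinate to arginine and fumarate, lies on chromosome 5 from 130011258 to 130024381 and is transcribed towards lower coordinates. Of its 10 FRA-1 peaks after LPS, 9 lay upstream, and 1 lay inside the gene, in LPS replicate 3 at 130023232 to 130023342 with a score of 246.36. LPS replicates 1 and 3 had peaks with scores of 178.46 and 226.47 at 130028784 to 130028896, 4403 to 4515 bp before the start. The same replicates had scores of 136.64 and 265.27 at 130032274 to 130032390, 7893 to 8009 bp before the start. No unstimulated replicate, no apoptotic cell replicate and not LPS replicate 2 had a peak listed in either region. The region farther out, at 130036950 to 130037120, was not confined to LPS, with scores of 209.18 and 246.44 in LPS replicates 1 and 3, 185.54 in unstimulated replicate 3 and 113.77 in apoptotic cell replicate 1.

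Both farther regions lie within Crcp, the neighboring gene, and the deposited LPS table assigns the nearest one to Asl and to Crcp. LPS replicate 3 also had the only peak of any replicate within 1 kb of the start of any of the 7 genes, at 130024972 to 130025081, 591 to 700 bp upstream of Asl. Its score, 136.35, had a percentile of 28.9. LPS replicate 2 had its single Asl peak at 130028255 to 130028445, 3874 to 4064 bp upstream, scored 229.08 (percentile 92.9). It ended before the region that the other LPS replicates shared.

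Unstimulated replicates had 0, 0 and 2 peaks at Asl, LPS replicates 3, 1 and 6, and apoptotic cell replicates 1, 2 and 0. The LPS mean was 3.33 ± 2.52 against 0.667 ± 1.15 (SD, n = 3 each; exact permutation test, two-sided, p = 0.2). The groups overlapped, since LPS replicate 2 had fewer peaks than unstimulated replicate 3. Both peaks of unstimulated replicates, and 9 of the 10 LPS peaks, came from replicates of the narrow class, and the part of peak width in this result was not tested.

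Odc1 lies on chromosome 12 from 17544808 to 17551502, the shortest gene of the 7. Of its 11 peaks, 9 lay in 2 neighboring regions upstream. The region at 17536736 to 17536914, 7894 to 8072 bp before the start, had scores of 138.91, 108.67 and 147.82 in the LPS replicates, 110.87, 113.42 and 92.93 in the apoptotic cell replicates, and 200.48 in unstimulated replicate 3 alone. It was thus listed in all 6 stimulated replicates and in 1 of 3 unstimulated ones. For LPS or apoptotic cells against unstimulated cells this is 3 of 3 against 1 of 3 replicates (p = 0.4 by a two-sided exact test of Fisher). The single unstimulated score was the highest of the 7 (percentile 82.4). LPS scores averaged 131.8 ± 20.5 and those with apoptotic cells 105.74 ± 11.2 (SD, n = 3 each; exact permutation test, two-sided, p = 0.3), and the groups overlapped. As percentiles the means were 45.3 ± 15.4 with LPS and 34.9 ± 6.47 with apoptotic cells (SD, n = 3 each, exact permutation test, two-sided, p = 0.5).

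A second region at Odc1 began 202 bp farther out, at 17536417 to 17536533, 8275 to 8391 bp before the start. LPS replicates 1 and 3, both of the narrow class, had scores of 200.47 and 245.97 there and no other replicate had a peak listed. Around these, LPS replicate 3 had a weak peak of 71.3 farther upstream, and unstimulated replicate 2 had the only peak inside the gene, with a score of 128.83. Peak counts were 0, 1 and 1 without stimulation, 2, 1 and 3 with LPS, and 1, 1 and 1 with apoptotic cells. LPS averaged 2.0 ± 1.0 and unstimulated cells 0.667 ± 0.577 (SD, n = 3 each; exact permutation test, two-sided, p = 0.3).

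**Figure D2:**
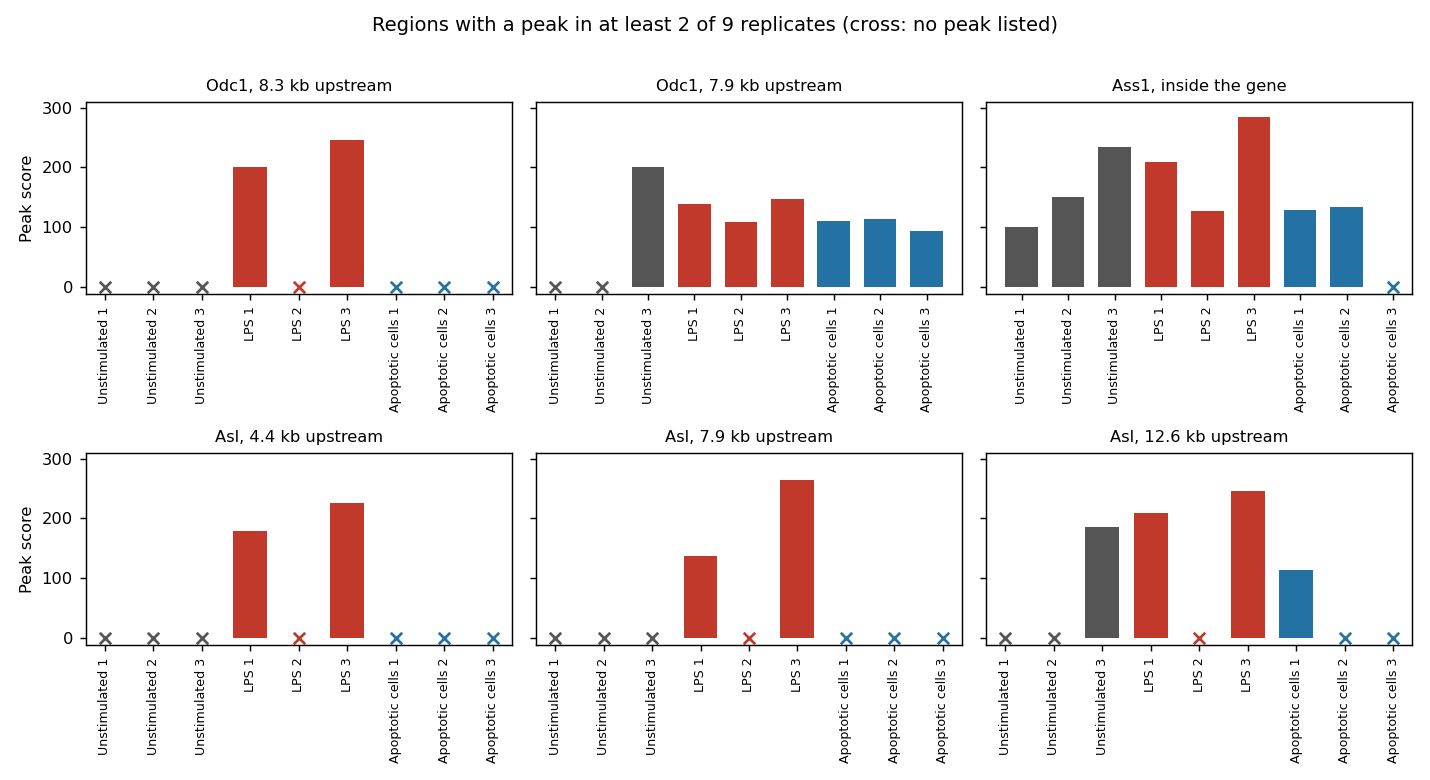
Peak scores in the 6 regions at the 7 genes that had a peak in at least 2 of 9 replicates. Bars are single replicates, colored by condition, the vertical axis is the deposited score, and a cross marks a replicate with no peak listed. LPS replicates 1 and 3 have a bar in all 6 panels, and in 3 panels (Odc1 at 8275 bp, Asl at 4403 and 7893 bp) no other replicate does.

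Arg1, the arginase linked to alternative activation, lies on chromosome 10 from 24915207 to 24927470 and is transcribed towards lower coordinates. Its 10 peaks fell in 10 regions, each in 1 replicate. Only 1 lay inside the gene, in LPS replicate 1 at 24918007 to 24918118 with a score of 136.64. Upstream, 6 peaks lay within 1961 to 7078 bp of the start, all of them overlapping Gm40616 or Gm36228, other genes in this window. LPS replicates 2 and 3 had neighboring peaks there that did not touch, at 24929431 to 24929603 (score 126.65) and at 24929746 to 24929943 (score 86.13), with 142 bp between them. These, and a peak of apoptotic cell replicate 3 at 24931197 to 24931382 with a score of 89.97, are the Arg1 peaks that the deposited tables assign to it.

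Farther upstream of Arg1, LPS replicate 3 had a score of 248.3 at 24933568 to 24933681, unstimulated replicate 3 one of 127.37 at 24934036 to 24934265, and LPS replicate 1 one of 134.02 at 24934374 to 24934548. They lay 354 and 108 bp apart. The other 3 peaks were beyond the 3′ end and within Med23. Arg1 had 0, 0 and 1 peaks without stimulation, 2, 1 and 3 with LPS and 0, 2 and 1 with apoptotic cells. LPS averaged 2.0 ± 1.0 against 0.333 ± 0.577 (SD, n = 3 each; exact permutation test, two-sided, p = 0.2), and LPS replicate 2 and unstimulated replicate 3 had equal counts.

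Arg2 lies on chromosome 12 from 79130788 to 79156301. All 5 peaks inside it came from narrow-class replicates, with scores of 157.2 and 77.5 in LPS replicate 1, 171.56 and 265.27 in LPS replicate 3 and 88.61 in unstimulated replicate 3, in 5 separate places. The peak of unstimulated replicate 3 inside Arg2 also overlapped Gm40462. On its lower-coordinate side, unstimulated replicate 1 had the highest score at any of the 7 genes, 304.84, at 79123049 to 79123229. Apoptotic cell replicates 2 and 1 had peaks of 144.24 and 72.92 that lay 166 bp apart on that side, from 79119245 to 79119909. Counts were 1, 0 and 1 without stimulation, 2, 0 and 4 with LPS and 2, 1 and 0 with apoptotic cells, and they overlapped (LPS against unstimulated, exact permutation test, two-sided, p = 0.5).

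Nos2 lies on chromosome 11 from 78920787 to 78960226 and had the fewest peaks of the 7 genes, 7 in all. In this window it was the only one of them with a lower mean count after LPS, with 0, 1 and 0 peaks against 0, 2 and 1 without stimulation and 0, 0 and 3 with apoptotic cells. The mean difference was -0.667 here and 0.0 with 50 kb on either side, where that of Ass1 was -1.0. These counts overlapped (LPS against unstimulated, exact permutation test, two-sided, p = 0.7). The sole LPS peak, in replicate 2 with a score of 68.33, lay beyond the 3′ end within Lgals9. No LPS replicate had a peak inside Nos2 or upstream of it within the window. Upstream, apoptotic cell replicate 3 had scores of 94.15 at 78917136 to 78917328, 3459 to 3651 bp before the start, and 184.35 at 78904002 to 78904160. Inside the gene, unstimulated replicate 2 had a score of 128.83 at 78938010 to 78938209. Without read counts, a missing peak says that none was listed, not that FRA-1 was absent.

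Slc7a2 lies on chromosome 8 from 40862341 to 40922070 and had the widest window, 99.7 kb. It had 10 peaks in 10 regions. Inside the gene, apoptotic cell replicate 2 had a score of 285.38 (percentile 96.2), unstimulated replicate 2 one of 196.68, and LPS replicate 3 ones of 76.9 and 68.38. Counts were 0, 1 and 1 without stimulation, 0, 2 and 2 with LPS and 0, 1 and 3 with apoptotic cells. The first replicate of each condition had no peak at Slc7a2, and the conditions overlapped (LPS against unstimulated, exact permutation test, two-sided, p = 0.6).

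Over the 7 genes together, unstimulated replicates had 3, 5 and 9 peaks, LPS replicates 10, 7 and 21, and apoptotic cell replicates 6, 8 and 12. The means were 5.67 ± 3.06, 12.7 ± 7.37 and 8.67 ± 3.06 (SD, n = 3 each). LPS was thus 2.24 times the unstimulated mean (exact permutation test, two-sided, p = 0.2), apoptotic cells 1.53 times (p = 0.4 by the same exact test), and LPS 1.46 times apoptotic cells (p = 0.6 by the same exact test). The unstimulated and LPS replicates overlapped, and with 3 replicates against 3 this test cannot go below 0.1. Adjusted by Benjamini-Hochberg over 24 comparisons (7 genes and their total in 3 contrasts), every p was 1.0.

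Over the whole genome, mean peak numbers were 1.99 times the unstimulated mean with LPS and 2.03 times with apoptotic cells. Per 10000 peaks of the replicate, the 7 genes had 2.25 ± 1.00 without stimulation, 2.42 ± 0.814 with LPS and 1.84 ± 0.606 with apoptotic cells (SD, n = 3 each). Within the narrow class, LPS replicates had 10 and 21 peaks at the 7 genes, the unstimulated replicate 9 and the apoptotic cell replicate 12. Within the wide class, the LPS replicate had 7, the unstimulated replicates 3 and 5, and the apoptotic cell replicates 6 and 8.

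**Figure D3:**
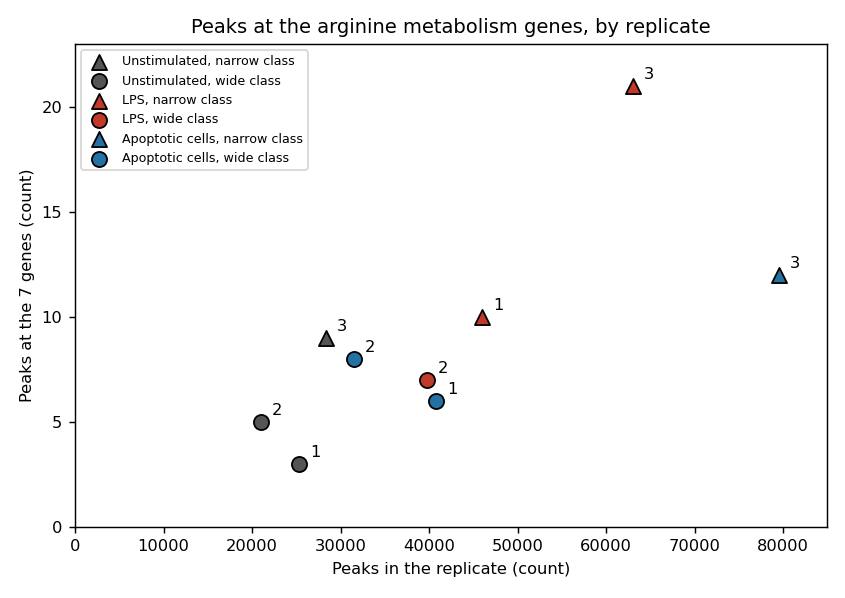
Peaks at the 7 genes against all peaks of each replicate. Each point is 1 replicate, numbered, colored by condition, with triangles for the narrow and circles for the wide class of peak width; both axes are counts. LPS replicate 3 stands highest with 21 peaks, and apoptotic cell replicate 3 has 12 although it has the most peaks in all.

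Windows differed in width, so counts are set beside all genes here. Over all protein-coding genes the median was 9 peaks (quartiles 6 and 16) in a median window of 57.2 kb, against a median of 11 (range 7 to 17) in windows of 46.7 to 99.7 kb at the 7 genes. Ass1 had more peaks than 75.8% of protein-coding genes, Asl more than 70.4%, and Nos2 more than 31.8%. Of the 62 regions, 6 (9.68%) had a peak in at least 2 of 9 replicates, beside 10.3% of the 300608 regions of the genome, and 2 had one in at least 7, beside 1.19%. A region shared by at least 2 replicates was present at 3 of 7 genes (42.9%), beside 58.4% of protein-coding genes.

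A region held by at least 2 LPS replicates and by 0 unstimulated ones was present at 2 of the 7 genes, Odc1 and Asl (28.6%), beside 34.0% of protein-coding genes. Each such region had peaks in 2 of 3 against 0 of 3 replicates, which is how it was picked, so no test is given. Each rests on LPS replicates 1 and 3, so that none is left when either is taken out. Both are of the narrow class, to which each other condition contributes replicate 3 alone. Only LPS could thus reach at least 2 replicates with narrow-class peaks alone, and the part of peak width in these counts was not tested. Counted against apoptotic cells, such LPS regions were again at Odc1 and Asl, beside 29.1% of protein-coding genes. No gene of the 7 had a region in at least 2 apoptotic cell replicates that was in 0 unstimulated ones (8.12% of protein-coding genes) or in 0 LPS ones (2.73%). None had a region in at least 2 unstimulated replicates that was in 0 LPS ones (0.891% of protein-coding genes) or in 0 apoptotic cell ones (1.53%), although Ass1 had one of the latter kind when peaks were limited to those above the median score of their replicate. The shares at the 7 genes are thus near those of protein-coding genes at large.

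**Figure D4:**
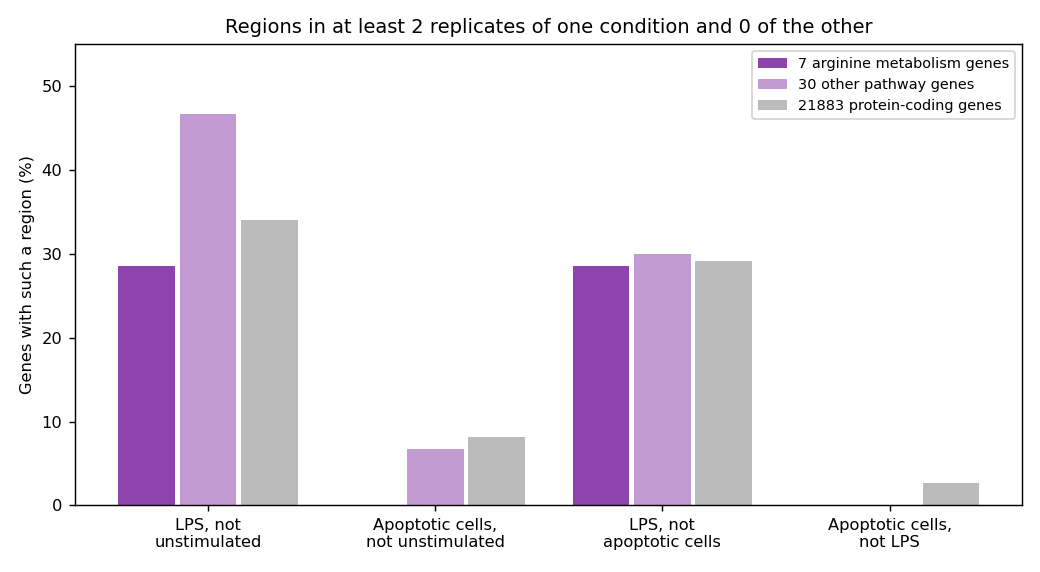
Share of genes, in percent, with a region in at least 2 replicates of a condition and in 0 of another, for the 7 genes, 30 other genes of the pathway and all 21883 protein-coding genes. Bars start at 0 and carry no error, since each is a count over genes. For LPS against unstimulated cells the shares are 28.6, 46.7 and 34.0%.

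The 30 other genes of arginine and polyamine metabolism covered further transporters, ornithine and creatine enzymes, polyamine enzymes and their regulators, urea cycle enzymes, other nitric oxide synthases and proline enzymes. All 30 had at least 1 FRA-1 peak, with a median of 11.5 beside 9 over protein-coding genes, and 23 (76.7%) had a region in at least 2 of 9 replicates, beside 58.4%. A region in at least 2 LPS and 0 unstimulated replicates was present at 14 of them (46.7%), beside 34.0% of protein-coding genes. This number was 2 without LPS replicate 1 or without LPS replicate 3, the narrow-class ones, and 4 with equal numbers of top-scoring peaks per replicate. A region in at least 2 apoptotic cell and 0 unstimulated replicates was present at 2, Oaz2 and Prodh (6.67%, beside 8.12%), and the number was 6 without unstimulated replicate 3 and 0 without apoptotic cell replicate 1. None had a region in at least 2 unstimulated replicates and in 0 of either stimulated condition.

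Only Nos1 and Oaz2 had such a region in all 3 LPS replicates. They were picked by this count, so no test is given. Inside Nos1, the neuronal nitric oxide synthase, LPS scores were 178.77, 126.89 and 344.84 at chromosome 5, 117952329 to 117952503, and apoptotic cell replicate 3 had 146.98. Beside Oaz2, an antizyme that restrains ornithine decarboxylase, they were 178.77, 126.89 and 153.77 at chromosome 9, 65690849 to 65691066, 549 bp from the gene, and apoptotic cell replicates 1 and 3 had 129.52 and 184.35. The score 126.89 of LPS replicate 2 in both is again the commonest of that replicate.

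The 6 others named were next by the score summed over all 9 replicates, apoptotic cell ones included, and among LPS replicates their peaks were in replicates 1 and 3. Summed scores mix the scales of the replicates, and the ranking is only a way to choose which to name. Prodh, proline dehydrogenase, had scores of 215.27 and 371.96 there, 3932 bp outside the gene, with 70.06 and 109.58 in apoptotic cell replicates 1 and 2. Azin1, which counters antizyme, had 233.03 and 404.73 inside the gene. Ddah2, which degrades methylarginine inhibitors of nitric oxide synthases, had 129.36 and 427.66, 5112 bp outside it, with 71.99 in apoptotic cell replicate 3. Slc3a2, the heavy chain of several amino acid transporters, had 178.77 and 265.27, 10320 bp outside the gene, with 129.52 in apoptotic cell replicate 1. Another such region lay inside Slc3a2, with 165.76 and 106.55, and 98.12 in apoptotic cell replicate 1. Pycr1, a proline-forming reductase, had 77.5 and 304.61 inside the gene, with 73.64 in apoptotic cell replicate 2. Amd1, the decarboxylase that supplies the aminopropyl donor of polyamines, had 244.98 and 208.17 inside the gene. The lack of a listed peak in unstimulated replicates is part of how these regions were picked.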

How the data were processed

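FRA-1 ChIP-seq peaks were analyzed in 9 replicates of mouse peritoneal macrophages (3 per condition), and 3 pooled input samples were not used. The authors deposited 1 table per condition with a score for each replicate (-1 where no peak was called), cut into segments at the peak boundaries. Per the submitters' processing notes, BWA 0.7.14 and bedtools were used with mm10/GRCm38. The peak caller is not given in the sources used here. The tables hold no read counts, so depth is unknown and no counting interval is given. Replicates were numbered by column order.

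Segments that adjoined with equal scores were put back together as 1 peak, and a region was formed wherever peaks of any of the 9 replicates overlapped or touched (Python 3.11.15, pandas 2.3.3, numpy 2.4.6, scipy 1.17.1, matplotlib 3.10.9). Conditions were compared by exact permutation or Fisher's exact tests, and gene counts were set beside those of 21883 RefSeq protein-coding genes. Direction of transcription came from the RefSeq promoter table (Odc1, Ass1), or from the side of the deposited assignment (Arg1, Nos2, Asl), since 11507 of 11510 assignments outside a gene and within 5000 bp lay upstream. It was not determined for Arg2 and Slc7a2, for which coordinate sides are given. Tested on simulated data, the steps recovered 18000 of 18000 peaks and 50 of 50 planted LPS regions. The simulated peaks of a replicate lay apart, so adjoining peaks with equal scores, which would be joined into 1, were not tested.

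The genes and lists were chosen with earlier results of these data known. Regions were described singly where at least 2 replicates had a peak or where they lay within 1 kb of a start, and other peaks of the 7 genes were named after their values were seen. Of the other pathway genes, 8 were named by summed score. Alternatives changed the window, score minimum, merging gap and replicates. Motifs in the regions were not analyzed, as no genome sequence was used here. The marker genes of other cell types are not reported here.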

Additional observations from a re-analysis of the deposited data

How the results depend on the processing

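LPS kept a higher mean peak count than unstimulated cells at the 7 genes under every alternative run, but the ratio was 1.08 per 10000 peaks, 1.27 with equal numbers of top-scoring peaks and 1.38 in gene bodies, and ran from 1.5 to 3.17 when 1 replicate was left out. The ratio of apoptotic to unstimulated cells turned below 1 in the gene bodies alone (0.5), with equal numbers of top-scoring peaks (0.8) and per 10000 peaks (0.818), and ran from 1.24 to 2.17 with 1 replicate left out. With 1 replicate left out, LPS against apoptotic cells ran from 0.981 (without LPS replicate 3) to 1.81. This ratio was 2.75 in gene bodies and 1.9 in 5 kb windows. The LPS difference in mean peaks became -0.333 at Odc1 in the gene body or 5 kb windows and -0.333 at Slc7a2 for peaks above the median score of their replicate; Odc1's shared regions lie beyond those windows. That of Nos2 was 0.0 with 50 kb on either side, and that of Ass1, 0.0 as reported, was -0.333 in gene bodies and 5 kb windows and -1.0 with 50 kb.

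Genes of the 7 with a region in at least 2 LPS and 0 unstimulated replicates numbered 0 in gene bodies, 1 in 5 kb windows (Asl), 1 with equal numbers of peaks (Odc1), 3 when peaks up to 200 bp apart were merged (Arg1, Odc1 and Asl) and 2 at 500 bp, chosen after seeing the data (Arg1 and Asl); leaving out 1 replicate gave 0 to 2, with 0 without LPS replicate 1 or 3. With 50 kb on either side they numbered 3 (Arg1, Odc1 and Asl). Against apoptotic cells they numbered 0 in gene bodies, 1 in 5 kb windows and 0 to 2 with 1 replicate left out. They numbered 3 with 50 kb on either side or gaps of 200 bp merged (Arg1, Odc1 and Asl). Peaks above the median score of their replicate also gave 3 (Odc1, Ass1 and Asl). With gaps of 200 or 500 bp merged, 1 gene (Arg2) had a region in at least 2 apoptotic cell replicates and 0 unstimulated or LPS ones; leaving out 1 replicate gave 0 to 1 against unstimulated cells (Odc1 without unstimulated replicate 3). Peaks above the median score gave 1 gene (Ass1) with a region in at least 2 unstimulated and 0 apoptotic cell replicates. Of the 30 other pathway genes, those with an LPS region numbered 9 in gene bodies, 4 with equal numbers of peaks and 2 to 18 with 1 replicate left out (2, Oaz2 and Nos1, without LPS replicate 1 or 3). With 50 kb on either side they numbered 19. Those with an apoptotic cell region numbered 0 in gene bodies, 1 at scores of at least 100, 1 with equal numbers, and 0 to 6 with 1 replicate left out (6 without unstimulated replicate 3). The causes were not tested except where named. No paired analysis was possible because no score column is tied to a mouse. Depth is unknown, so an unlisted peak sets no limit on binding.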

Other observations

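Scores repeated within replicates. The commonest score of each replicate was carried by 8.26 to 14.4% of its peaks, 44103 peaks (11.8%) in all, and by 14 of the 81 peaks at the 7 genes (17.3%). These included 4 of the 8 peaks of the shared region inside Ass1.

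The genes whose summed scores over the 9 replicates most resembled those of a member, among protein-coding genes over 1 Mb away, were described by Pearson's r of log2(1 + summed score). They were Gm46320 (r = 0.999) and Dusp7 (0.998) for Arg1, Muc13 and Nfatc2ip (0.996 each) for Arg2, Igf2 (0.992) and Plaat5 (0.989) for Nos2, and Cenps (0.997) and Flywch2 (0.994) for Odc1. For Slc7a2 they were Hspb2 (0.994) and Dnd1 (0.989), for Ass1 Gpc3 (0.946) and Tardbp (0.943), and for Asl Znhit2 and Fau (0.999 each). The points share the 9 replicates and their peak numbers, and many are at 0, so that such values are common: 561 genes reached 0.9 with Odc1, 138 with Arg1 and 8 with Nos2.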
